A study of Mus musculus with 4 samples.

Results

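Distal Sp9 peaks found at both embryonic stages are described here. Sp9 belongs to the SP/KLF zinc finger proteins, which bind DNA and regulate transcription, and it is expressed in the embryonic ganglionic eminences and in immature neurons of the striatum. Its binding sites were mapped with ChIP-seq (chromatin immunoprecipitation followed by sequencing) in micro-dissected basal ganglia of wild-type CD1 embryos at embryonic day 16.5 (E16.5) and embryonic day 13.5 (E13.5). Each stage had 1 library made with a rabbit antibody to Sp9 and 1 input library without antibody. The labels name no treatment, and do not say whether embryos were pooled or how many were used. The deposited lists name, for each gene, its numbered peaks and for each peak a signed distance in bp to the gene's transcription start site (TSS) on the mm9 build. A peak was kept when its nearest TSS was more than 50 kb and at most 500 kb away and the other list placed a peak of the same gene within 200 bp of the same signed distance. By this rule 1660 of 6022 peaks at E16.5 (27.6%, 95% Wilson interval 26.5 to 28.7) and 1658 of 5847 peaks at E13.5 (28.4%, 27.2 to 29.5) were members, here called recurring distal peaks.

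Most binding sites of a developmental transcription factor lie away from promoters, in enhancers that can act on a gene over long stretches of DNA. Enhancers of brain developmental genes often lie in introns or in large gene-poor intervals, and several may surround 1 gene. The nearest gene is a common but uncertain guide to the gene that an enhancer controls. SP/KLF proteins bind GC-rich sequences, the GC box and the related GT box. Sp9 and its paralogue Sp8 act in the lateral ganglionic eminence, the source of striatal medium spiny neurons and of olfactory bulb interneurons.

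Members were chosen by their measured distance and recurrence, so these values are given as a description without a test. Of the distal peaks (50 to 500 kb), 1660 of 2355 recurred at E16.5 (70.5%) and 1658 of 2899 at E13.5 (57.2%). Over all listed peaks the shares were 56.2% at E16.5 and 57.9% at E13.5. The number of recurring distal peaks is nearly the same in both lists by construction, so the difference between 70.5% and 57.2% follows from the number of distal peaks that each list holds. All members had exactly 1 counterpart, and in all cases the nearest gene was the same in both lists. The 2 extra members at E16.5 lay 50003 bp from Sufu and 50031 bp from Ankrd7, whose E13.5 counterparts at 49965 and 49997 bp fell just short of the 50 kb limit. At the far limit, the last members at E16.5 lay 495485 bp from Prmt6 and 495419 bp from Zfp608, and the next recurring peaks lay 501743 bp from Dpyd and 502451 bp from Dab2. At the matching limit, the least exact match at E16.5 was 200 bp apart at Lpp, and the first distal peak that missed was 202 bp from an E13.5 peak at Gm11146.

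The lists place a peak by its distance from a TSS on mm9. No mm9 genome or TSS set was used here, so the bases of the distal peaks are not shown. Shown in their place are promoters of genes that had several recurring distal peaks and, in addition, a peak inside the promoter window at both stages. With at least 2 recurring distal peaks as the nearest gene, and a peak between 250 bp upstream and 50 bp downstream of the TSS in each list, 6 genes met this description, namely Btg1, Arl4c, Pfn2, Sdk1, Sox4 and Tmem131l. Below are 3 of these promoters from RefSeq on GRCm38.p6, another build than that of the lists, each 5′ to 3′ along the gene. Capitals mark the GC box GGGCGG on either strand. Btg1, on chr10:96616751-96617050 (plus strand), encodes an antiproliferative protein, and its GC boxes lie on the opposite strand. Arl4c, on chr1:88702142-88702441 (minus strand), encodes a small GTPase of the ARF family. Sox4, on chr13:28953650-28953949 (minus strand), encodes a SOX transcription factor of newborn neurons and shows no GC box in this window.
Btg1: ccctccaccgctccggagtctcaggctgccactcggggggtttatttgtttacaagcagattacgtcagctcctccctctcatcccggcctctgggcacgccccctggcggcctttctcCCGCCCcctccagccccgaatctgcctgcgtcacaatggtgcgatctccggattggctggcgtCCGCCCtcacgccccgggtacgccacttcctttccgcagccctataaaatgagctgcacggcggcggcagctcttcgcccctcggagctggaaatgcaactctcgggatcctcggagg
Arl4c: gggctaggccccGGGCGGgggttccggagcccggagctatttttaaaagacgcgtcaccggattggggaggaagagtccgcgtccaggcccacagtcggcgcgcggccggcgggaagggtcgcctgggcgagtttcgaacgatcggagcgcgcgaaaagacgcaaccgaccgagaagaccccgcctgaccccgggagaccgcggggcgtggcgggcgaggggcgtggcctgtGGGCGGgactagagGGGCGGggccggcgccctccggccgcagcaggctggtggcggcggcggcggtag
Sox4: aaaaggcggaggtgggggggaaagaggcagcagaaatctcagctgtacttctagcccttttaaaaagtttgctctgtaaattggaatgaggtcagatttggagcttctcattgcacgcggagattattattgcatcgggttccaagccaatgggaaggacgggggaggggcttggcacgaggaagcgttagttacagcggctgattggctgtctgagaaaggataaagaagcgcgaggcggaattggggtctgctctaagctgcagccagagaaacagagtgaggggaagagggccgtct

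Of the 6 promoters, those of Sdk1 and Tmem131l held 4 GC boxes each, that of Arl4c 3, that of Btg1 2, that of Pfn2 1 and that of Sox4 none. At least 1 GC box is in 35.7% of the 32851 RefSeq mouse promoters of this length. The GT box GGGTG, searched on both strands, is in 57.5% of them and in 2 of these 6, Pfn2 and Sdk1 with 1 each. The 3 shown were picked after their values were seen, and no comparison is drawn from 6 promoters. Btg1 had 5 recurring distal peaks, all downstream, at 130512, 138728, 339206, 364059 and 393065 bp from the TSS at E16.5, against 130577, 138627, 339120, 363969 and 393025 bp at E13.5. Its promoter peak lay at -122 bp at E16.5 and at -145 bp at E13.5. The Arl4c promoter peak lay at -52 bp at E16.5 and at 21 bp at E13.5, and its nearest-gene members lay 50233 and 55141 bp upstream at E16.5, against 50288 and 55274 bp at E13.5. The Sox4 promoter peak lay at -1 bp at E16.5 and at -64 bp at E13.5. The recurring distal peaks of Sox4 lay 417722 bp upstream and 234790 bp downstream at E16.5, against 417623 and 234728 bp at E13.5.

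Distances run to a TSS, so a peak downstream of one may lie inside that gene, and the lower limit of 50 kb is set by the rule. The median distance to the nearest TSS was 153 kb in each list, with quartiles of 89.7 and 252 kb at E16.5 and of 89.7 and 253 kb at E13.5. The bin from 100 to 200 kb held the most members, 582 at E16.5 (35.1%) and 581 at E13.5 (35.0%), and the bin from 400 to 500 kb held 111 at each stage. Recurrence showed no steady trend with distance. It ranged from 65.5% (300 to 400 kb) to 74.9% (200 to 300 kb) at E16.5, and from 54.0% (300 to 400 kb) to 58.8% (100 to 200 kb) at E13.5. Wilson intervals, which cover counting error only and treat neighbouring peaks as independent, ran from 70.6 to 78.9 for the highest bin at E16.5 and from 59.4 to 71.1 for the lowest.

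**Figure D1:**
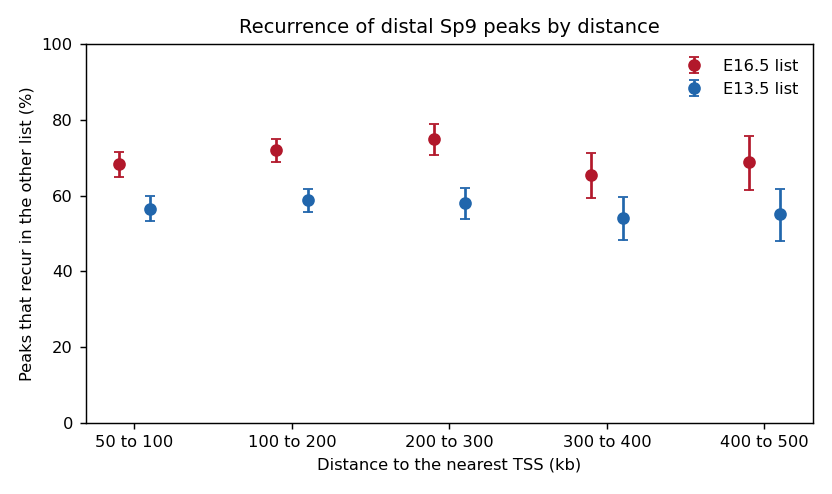
Share of distal Sp9 peaks that recur within 200 bp in the other list (y axis, %), by distance to the nearest TSS (x axis, kb), for the E16.5 list and the E13.5 list; bars are 95% Wilson intervals. The E16.5 shares lie between 65.5 and 74.9% and the E13.5 shares between 54.0 and 58.8%, with no steady rise or fall along the axis.

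The rule bounds the displacement between the lists at 200 bp, and most members lay well inside it. The median distance between an E16.5 member and its E13.5 counterpart was 36.0 bp (quartiles 16 and 67.0), and 1476 of 1660 (88.9%) lay within 100 bp. At most 10 bp separated 273 members (16.4%) from their counterparts, and 10 had identical distances. For the 628 recurring promoter peaks (within 1 kb of a TSS) the median was 57.0 bp with quartiles of 25 and 100 bp. Near misses were few. Of the 695 distal peaks of the E16.5 list only, 40 had an E13.5 peak of the same gene at more than 200 and at most 500 bp, and of the 1241 of the E13.5 list only, 38 had an E16.5 peak that close. No peak of any of their genes was in the other list for 82 of the 695 and 174 of the 1241.

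**Figure D2:**
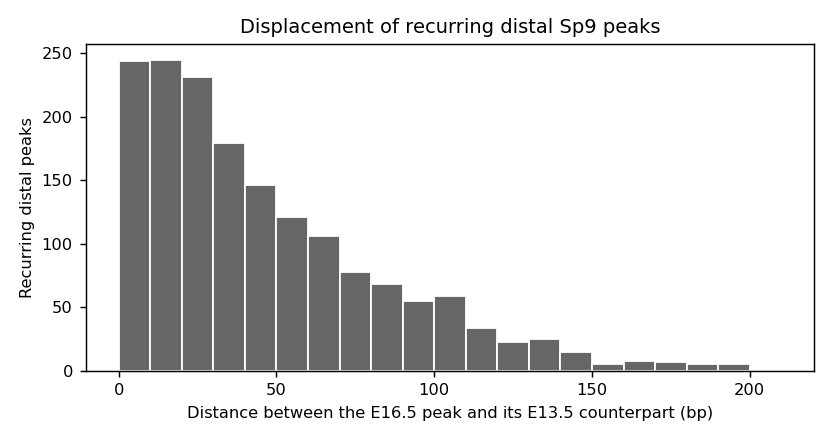
Distance in bp between each of the 1660 recurring distal peaks at E16.5 and its E13.5 counterpart (x axis), counted in bins of 10 bp (y axis, number of peaks). Most of the peaks stand at the left of the axis, and 1057 members (63.7%) lie at most 50 bp apart.

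Relative to the nearest gene, recurring distal peaks lay downstream of the TSS more often than upstream. At E16.5, 956 of 1660 members (57.6%) were downstream, and at E13.5, 954 of 1658 (57.5%). The share on each side was compared with that of the distal peaks of 1 list only. Of the E16.5 members 42.4% (40.1 to 44.8) were upstream, against 45.2% (41.5 to 48.9) of the 695 peaks of that list only, a difference of -2.77 points (95% interval -7.17 to 1.61; two-sided Fisher's exact p = 0.219, adjusted p = 0.583). At E13.5 the share was 42.5% among members and 42.5% among the 1241 peaks of that list only (interval of the difference -3.64 to 3.62 points; Fisher's exact adjusted p = 1). Adjusted p-values are by Benjamini-Hochberg over 8 such tests. They compare sets of peaks within 1 library. Neighbouring peaks are not independent, intervals of differences are Newcombe's, and the stages have no replicates.

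Most members were assigned to 2 genes. Of the E16.5 members, 1386 (83.5%, 81.6 to 85.2) were assigned to 2 or more genes, against 565 of 695 (81.3%, 78.2 to 84.0) of the E16.5 list only. At E13.5 the share was 83.5% (81.7 to 85.2) against 80.7% (78.5 to 82.8). The differences of 2.20 points (-1.10 to 5.71) and 2.79 points (-0.0121 to 5.65) did not pass after adjustment (Fisher's exact adjusted p = 0.583 and 0.439). The 2 distances of a peak run from the same position and shift together, so they are not 2 separate chances to match. For members with exactly 2 flanking genes, 440 of 1379 at E16.5 lay downstream of both TSSs (31.9%), 690 downstream of 1 and upstream of the other (50%), and 249 upstream of both (18.1%). At E13.5 the counts were 440, 689 and 249 of 1378. The sum of the distances to both TSSs, which is the interval between them, had a median of 532 kb at each stage, against 481 kb for peaks of the E16.5 list only and 534 kb for peaks of the E13.5 list only.

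A minority of the genes nearest to a recurring distal peak carried a promoter peak, but a larger share than of all protein-coding genes. At E16.5, 229 of 1660 members (13.8%, 12.2 to 15.5) had a nearest gene with a peak within 1 kb of its TSS in the same list, against 96 of 695 peaks of that list only (13.8%, 11.4 to 16.6; interval of the difference -3.20 to 2.92 points; Fisher's exact adjusted p = 1). At E13.5 it was 163 of 1658 (9.83%, 8.49 to 11.4) against 115 of 1241 (9.27%, 7.78 to 11.0; difference 0.564 points, -1.63 to 2.70; Fisher's exact adjusted p = 0.874). Counted by gene, 146 of 1062 protein-coding nearest genes at E16.5 (13.7%) and 96 of 1060 at E13.5 (9.06%) had a promoter peak, beside 9.42% and 4.93% of all 21900 protein-coding genes. Among protein-coding genes nearest to a distal peak of that list only, 14.8% at E16.5 and 8.88% at E13.5 had one. Of the 1146 genes nearest to a member in both lists, 731 (63.8%) had no Sp9 peak within 50 kb at either stage, 228 (19.9%) had one at both, 99 (8.64%) at E16.5 only and 88 (7.68%) at E13.5 only. Genes nearest to other distal peaks were much alike. Within 1 list, 71.1% of protein-coding nearest genes at E16.5 and 72.5% at E13.5 had no peak within 50 kb. For protein-coding genes nearest to a distal peak of that list only, the shares were 67.7% and 73.6%. A promoter peak was found at both stages for 76 of the 1146 genes, at E16.5 only for 76 and at E13.5 only for 26.

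Members stood with other peaks of their genes about as often as the remaining distal peaks did. Another peak of the same gene lay within 50 kb for 557 of 1660 members at E16.5 (33.6%, 31.3 to 35.9), against 243 of 695 (35.0%, 31.5 to 38.6) of that list only (difference -1.41 points, -5.66 to 2.74; Fisher's exact adjusted p = 0.856). At E13.5 the shares were 39.7% (37.4 to 42.1) and 38.4% (35.8 to 41.2; difference 1.31 points, -2.28 to 4.88; Fisher's exact adjusted p = 0.856). Linking members of the same gene at most 50 kb apart left 1252 of the E16.5 members alone (75.4%), and formed 137 pairs, 33 groups of 3, 5 groups of 4 and 3 groups of 5. The groups of 5 lay at Tcf4, at Atp5g3 and at 4933400A11Rik. At Tcf4, which encodes an E-protein transcription factor of neural progenitors, the group spanned 109 kb, at 156212, 173458, 218875, 253090 and 265320 bp downstream of the TSS at E16.5, against 156195, 173493, 218949, 253131 and 265457 bp at E13.5. At 4933400A11Rik the 5 members lay within 12.1 kb at E16.5 and 12.3 kb at E13.5, and each list held 7 further peaks of that gene that did not recur. These 5 members were displaced by 88 to 185 bp between the lists, beside a median of 36.0 bp over all E16.5 members.

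**Figure D3:**
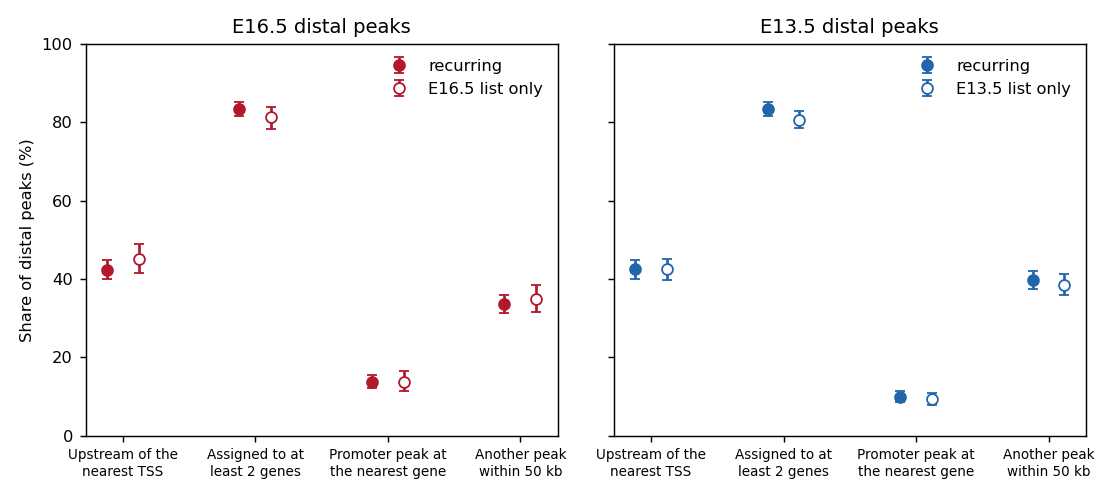
Shares (y axis, %) of recurring distal peaks (filled) and of distal peaks of 1 list only (open) with each of 4 features (x axis), for the E16.5 list on the left and the E13.5 list on the right; bars are 95% Wilson intervals. In each pair the intervals overlap, and the differences lie between -2.77 and 2.79 points.

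The 1660 members at E16.5 had 1148 different nearest genes, and the 1658 at E13.5 had 1146. Most of these genes were nearest to exactly 1 member, 834 at E16.5 (72.6%) and 832 at E13.5 (72.6%). At each stage 314 genes were nearest to 2 or more members and together took 826 of them (49.8%), 45 genes were nearest to 4 or more, and 22 to 5 or more. Zfp608, which encodes a zinc finger protein, was nearest to 8. They lay 495419, 200245, 156878, 146417 and 51160 bp upstream and 298439, 397826 and 456567 bp downstream at E16.5, against 495520, 200229, 156874, 146437 and 51165 bp and 298479, 397839 and 456544 bp at E13.5. Besides these members, the E16.5 list held 4 peaks and the E13.5 list 12 peaks at Zfp608 that did not recur.

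Tmem161b, which encodes a membrane protein, was nearest to 7 members. Of the 8 assigned to it, 3 lay upstream, between it and Mef2c, a MADS-box factor gene of neuronal differentiation, and 1 of these was nearer to Mef2c. Seen from Mef2c, 4 members lay downstream, at 211857, 246792, 380541 and 481573 bp at E16.5, against 211819, 246709, 380579 and 481464 bp at E13.5. Galnt17, listed under its older name Wbscr17 and encoding a glycosyltransferase, was nearest to 7 members, and 3 of these were assigned as well to its neighbour Auts2. Auts2, a neurodevelopmental gene, was itself nearest to 4, at 303511 bp upstream and at 107712, 112338 and 466827 bp downstream at E16.5, against 303608 bp upstream and 107792, 112356 and 466788 bp downstream at E13.5.

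Further leading genes were nearest to 5 or 6 members each. Fign encodes a microtubule-severing ATPase and was nearest to 6, between 86105 and 424883 bp from the TSS at E16.5, against 86026 and 425044 bp at E13.5. Atp5g3, a gene for subunit c of mitochondrial ATP synthase, was nearest to 6, all upstream in the interval shared with Lnpk (listed as Lnp), from 185654 to 309430 bp at E16.5 and from 185713 to 309376 bp at E13.5. BC052040 was nearest to 6, of which 2 were also assigned to the neighbouring Meis2. Cwc22, which encodes a splicing factor, was nearest to 6, beside 14 further peaks at E16.5 and 49 at E13.5 that did not recur. Its members were displaced by 21 to 181 bp (median 70.5 bp), beside a median of 36.0 bp over all E16.5 members. Lingo1, a gene for a leucine-rich repeat membrane protein of neurons, was nearest to 5 and had no other peak in either list. Rnd3, a gene for a small GTPase of the cytoskeleton, and A230072I06Rik were nearest to 5 each.

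**Figure D4:**
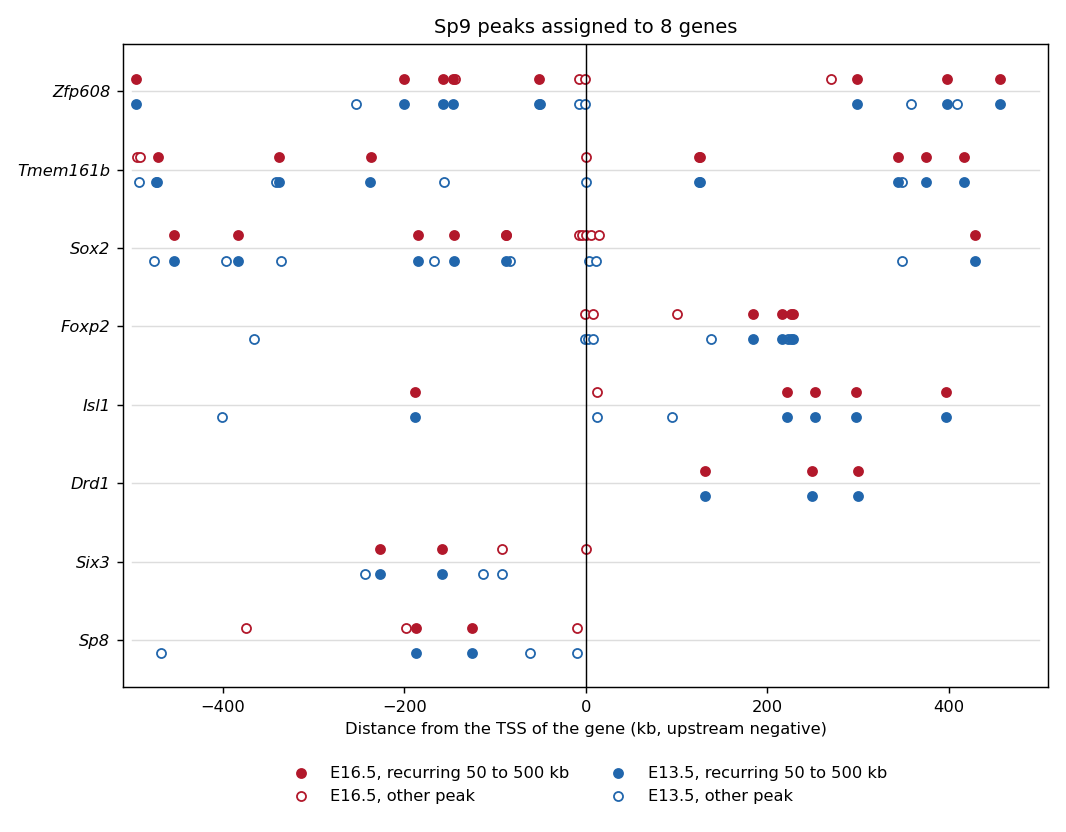
Sp9 peaks within 500 kb of 8 genes (rows), by signed distance from the TSS (x axis, kb); the E16.5 list is drawn above the E13.5 list in each row, filled points are recurring distal peaks and open points are other peaks. Filled points of both stages stand above each other, for example 8 at Zfp608 and 3 at Drd1, where no open point appears.

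Next, the genes assigned a recurring distal peak within 500 kb were counted by group. Of the 21900 protein-coding genes, 1506 had one at E16.5 (6.88%) and 1503 at E13.5 (6.86%), and the median gene had 0. Distal peaks of 1 list only were assigned to 788 of these genes at E16.5 (3.60%) and to 1265 at E13.5 (5.78%). A list gene counted when it was 1 of the flanking genes, nearest or not. Unless nearest is stated, counts for single genes below follow the same rule, so some members were nearer to another gene. Of their 6 members each, Fzd1, Sox2 and Grik3 were nearest to 4 and Tcf7l2 to 3, and Gbx2 was nearest to 2 of 4. Because each member is in both lists, the counts for each list of genes were the same at both stages. A gene's assignment domain runs on to its neighbours' domains, so genes with wide flanks can take more distal peaks. Flank size was not measured here, its part in the shares was not tested, and an assigned gene is not a shown target. The lists were chosen with earlier results of these data known. Distal peaks of 1 list only were also assigned to genes of most lists. At E13.5 they reached 9 of 14 medial eminence, 7 of 13 caudal eminence, 15 of 32 axon guidance and 10 of 26 SP/KLF genes. At E16.5 these counts were 4, 2, 12 and 7. Lower counts were found for pallial glutamatergic genes (1 of 16 at E13.5, 0 at E16.5). High shares below are therefore not particular to recurring peaks.

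Striatal neuron genes had a recurring distal peak in 10 of 20 cases (50%, 29.9 to 70.1). Meis2, a TALE homeodomain factor, had 5. They lay 259324 and 257514 bp upstream and 208391, 338146 and 339417 bp downstream at E16.5, against 259402 and 257524 bp and 208395, 338089 and 339393 bp at E13.5. Pbx3, another TALE gene, had 4, at 115966, 118994, 264949 and 355389 bp downstream at E16.5 and at 115982, 119000, 264938 and 355396 bp at E13.5, each displaced by 6 to 16 bp. Foxp2, a forkhead gene of striatal neurons, had a group of 4 within 43.8 kb, at 184072, 215814, 226243 and 227903 bp downstream at E16.5, against 184166, 215848, 226319 and 227869 bp at E13.5. Its relative Foxp1 had 3, and Bcl11b, a zinc finger gene of medium spiny neuron maturation, had 3 that were displaced by 13 to 59 bp between the lists. Meis1 had 2, while Rarb, Ikzf2 and Gad2 had 1 each.

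Of the genes that mark D1-type medium spiny neurons, 4 of 10 had a recurring distal peak (40.0%, 16.8 to 68.7). Isl1, a LIM homeodomain gene, was nearest to 5, at 188104 bp upstream and 222032, 252297, 297539 and 397448 bp downstream at E16.5, against 188224 bp upstream and 221991, 252396, 297541 and 397431 bp downstream at E13.5. Drd1, which encodes the D1 dopamine receptor, had 3 downstream and no peak nearer than these. They lay at 131396, 249739 and 300293 bp at E16.5, against 131515, 249728 and 300258 bp at E13.5. The farthest of the 3 was nearer to the TSS of Gm5449. Tac1, the substance P precursor gene, had 1 at 257643 bp upstream at E16.5 and 257684 bp at E13.5, and Zfp521 had 1. Of the D2 list, 3 of 11 genes had one (27.3%, 9.75 to 56.6). Grik3, a kainate receptor subunit gene, had 6, from 295705 bp upstream to 113882 bp downstream at E16.5, against 295783 and 113921 bp at E13.5, and Six3 had 2, displaced by 40 and 44 bp. Ptprm had 1.

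Regulators of the ganglionic eminence had a recurring distal peak in 6 of 14 cases (42.9%, 21.4 to 67.4). Tle4, a Groucho corepressor gene, had 5. Sp8 had 2, both upstream and displaced by 30 and 46 bp, and Sp9 itself had none at this range. Otx2 had 1. The 2 pairs of Dlx genes had none.

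Markers of the medial eminence and its interneurons had recurring distal peaks in 7 of 14 cases (50%, 26.8 to 73.2), and those of the caudal eminence and olfactory bulb interneurons in 8 of 13 (61.5%, 35.5 to 82.3). Nkx2-1, the homeobox gene that specifies the medial eminence, had 2, at 65600 and 77921 bp downstream at E16.5, against 65508 and 77970 bp at E13.5. Gbx2, a homeobox gene, and Erbb4, the neuregulin receptor of migrating interneurons, had 4 each. Etv1, an ETS factor gene, had 5, of which 4 lay upstream between 343912 and 450969 bp at E16.5, against 343872 and 450918 bp at E13.5. Nr2f2, an orphan nuclear receptor gene of the caudal eminence, and Reln, the gene for the secreted protein reelin, had 2 each, and Prox1, Pax6, Nr2f1, Sall3 and Tshz1 had 1 each.

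Among SOX genes, 6 of 12 had a recurring distal peak (50%, 25.4 to 74.6). Sox2, a neural stem cell factor gene, had 6, at 453625, 383227, 184489, 145657 and 88431 bp upstream and 428547 bp downstream at E16.5, against 453746, 383230, 184442, 145654 and 88322 bp upstream and 428550 bp downstream at E13.5. Nearer to Sox2, within 50 kb, the E16.5 list held 5 peaks and the E13.5 list 2, and none of these recurred. Sox11, a factor of newborn neurons, had 5 and Sox5 had 3. The list of NFI, POU and nuclear receptor genes had 6 of 16 (37.5%, 18.5 to 61.4), with 4 at Nfia and 2 at Pou3f3. In the SP/KLF family 11 of 26 genes had one (42.3%, 25.5 to 61.1), with 4 at Klf7 and 2 at Klf13, and the 2 of Sp4 were those of Sp8.

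Genes for cell contact and guidance stood among the highest, with a median of 1 recurring distal peak per gene in both lists. Cadherin and synaptic adhesion genes had a recurring distal peak in 17 of 28 cases (60.7%, 42.4 to 76.4). Nrxn3, a presynaptic neurexin gene, had 4, at 215076 and 174919 bp upstream and 65072 and 73296 bp downstream at E16.5, against 215075 and 174936 bp upstream and 65045 and 73315 bp downstream at E13.5. Axon guidance genes had one in 18 of 32 cases (56.2%, 39.3 to 71.8). Dcc, the netrin receptor gene, Epha4, an ephrin receptor gene, and Nrp2, a semaphorin co-receptor gene, had 4 each. At Dcc they lay 288970 and 203512 bp upstream and 334741 and 375452 bp downstream at E16.5, against 289068 and 203502 bp upstream and 334770 and 375516 bp downstream at E13.5. Ion channel and receptor genes had one in 13 of 36 cases (36.1%, 22.5 to 52.4), with 3 at Cacna2d1 after Grik3.

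Lists for signalling pathways and other lineages were counted in the same way. WNT, FGF, BMP and hedgehog genes had 9 of 30 (30.0%, 16.7 to 47.9), and 2 of them had 6 members each. Fzd1, a WNT receptor gene, had 6 and no other peak in either list, and Tcf7l2, a WNT effector gene, had 6 that were displaced by 0 to 33 bp. Radial glia genes had 7 of 14 (50%, 26.8 to 73.2), with Sox2 in front and Tnc, an extracellular matrix gene, next with 2. Notch pathway genes had 5 of 18 (27.8%, 12.5 to 50.9), among them the ligand genes Jag1 with 2 and Dll1 with 1. Pallial glutamatergic genes had 5 of 16 (31.2%, 14.2 to 55.6), with 2 at Emx2 and 2 at Cux1.

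Lists for other cell types were counted beside these, and they did not all stand below the neural lists. The oligodendrocyte lineage had 1 of 8 genes (12.5%, 2.24 to 47.1), which was Pdgfra. Endothelium, microglia and blood had 4 of 14 (28.6%, 11.7 to 54.6), namely Cdh5, Kdr, Pecam1 and Ptprc. Of these, only Cdh5 was the nearest gene of its peak, and the Kdr peak lay nearer to Kit. The neural lists also held genes that were assigned a member but were nearest to none. Nearest to a member were 5 of the 8 caudal eminence, 5 of the 7 medial eminence and 4 of the 7 radial glia genes. For striatal neuron genes it was 9 of the 10. The share of 28.6% was close to those of the D2 list (27.3%) and the Notch list (27.8%), and above the 6.88% of all protein-coding genes at E16.5. Liver and heart genes had 0 of 14, which allows a share of up to 21.4%, and housekeeping genes 0 of 15, which allows up to 20%. Both limits lie above 6.88%, so the counts of 0 do not set these lists apart from all protein-coding genes.

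**Figure D5:**
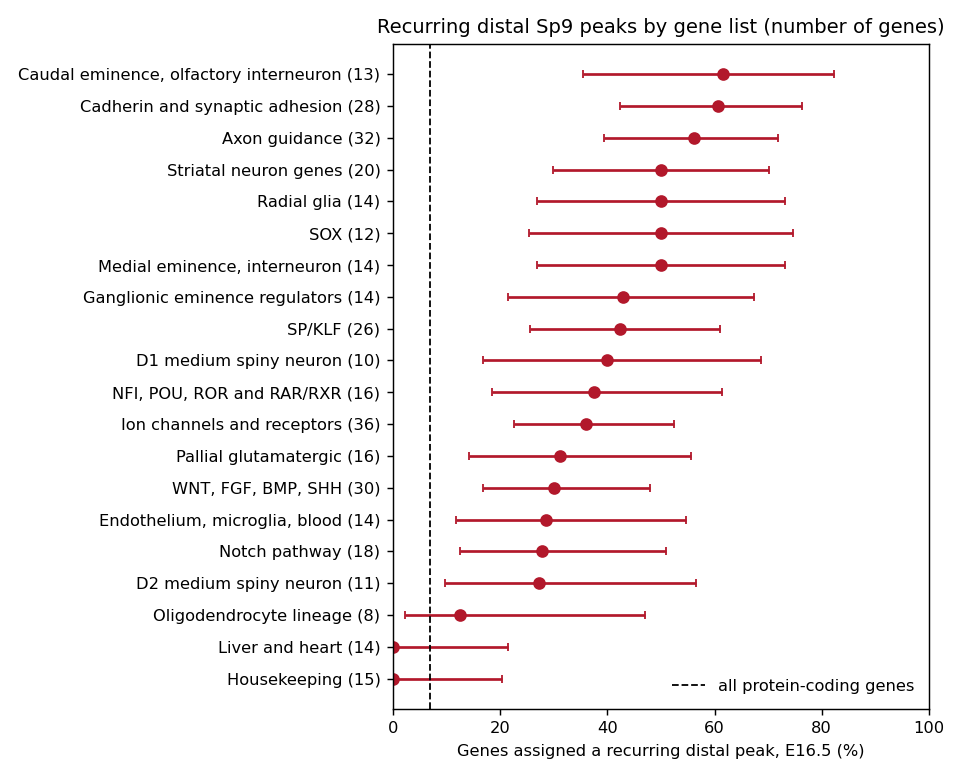
Share of genes (x axis, %) assigned a recurring distal peak at E16.5, for 20 gene lists (rows, number of genes in parentheses); bars are 95% Wilson intervals and the dashed line is the 6.88% of all protein-coding genes. The caudal eminence list stands highest at 61.5%, and the liver and heart and housekeeping lists stand at 0.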

How the data were processed

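Per the file headers, the authors deposited, for each gene, text that holds peak numbers and TSS distances, and assigned each peak of 1 ChIP library to genes whose domain reached it on mm9 (5000 bp upstream, 1000 bp downstream, extension up to 1000000 bp, curated domains included). CASAVA 1.8.2, bcl2fastq 1.8.4, BWA 0.6.2 and MACS2 2.1.0 were used, per the submitters' processing notes, with settings not given. The lists hold no height, width or coordinate of a peak, so the depth is unknown and peak strength was not weighed. The point of a peak from which distances run is not stated in the headers.

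Lettered entries of a peak number were counted as 1 peak. Of the names assigned to members, 1675 of 1721 at E16.5 and 1672 of 1718 at E13.5 matched the RefSeq gene table (GRCm38.p6, used for names and gene type). Er81, a list name with no unique match, was left out. Features of members were compared with Fisher's exact test, Benjamini-Hochberg adjusted, threshold 0.05. The matching and tests were tested on simulated data. Simulated peaks were either kept well inside the matching limit or moved far outside it. The simulation therefore checked the code only, and not the matching of near misses or of dense groups of peaks. Python 3.11.15, numpy 2.4.6, scipy 1.17.1 and matplotlib 3.10.9 were used. Members, lists and tests were chosen with earlier results of these data known.

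Genes were named by this rule: the 12 nearest to most members, up to 4 per list with most members, Sp8, Sp9 and Six3, and the members at the limits. Btg1, Tcf4, Bcl11b, Foxp1, Mef2c, Auts2, the promoter genes and other single list genes were named after their values were seen. Signal of the input libraries was not analysed here. Values of some genes under the rule are not reported here.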

Additional observations from a re-analysis of the deposited data

How the results depend on the processing

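Counts of recurring distal peaks and of their genes stayed within 1.5 times of those reported under matching within 100, 500 or 1000 bp, narrower distance limits, entries in place of numbers, and, for genes, the nearest gene only. Peaks numbered 1167 at E16.5 at the lowest and 1724 at the highest. Of 56 alternative Fisher's exact tests of the 4 features, 2 passed, both at E16.5 with every lettered entry counted: upstream share -6.13 points and clustering -5.58 points (adjusted p = 0.0346 each). That setting counts a peak with several lettered entries more than once. Entries of 1 peak can then be each other's neighbours in the clustering share, so no conclusion is drawn from that result. Differences changed sign in 13 cases, none past the threshold before or after. For promoter peaks at E16.5 the difference was 0.237, 0.295 and 0.342 points at 100, 500 and 1000 bp, 0.0197 beyond 100 kb, 0.545 by entries and 0.825 with a 500 bp promoter. At E13.5 it was -0.693 by entries. Clustering turned to -0.359 at 100 bp and -0.589 within 20 kb at E13.5, and to 0.876 at 1000 bp at E16.5. The upstream share turned to 2.24 at E16.5 (reported as -2.77) and 1.35 at E13.5 beyond 100 kb, and to 0.470 at E13.5 within 250 kb. The cause was not tested. No paired analysis was possible because each stage has 1 library, and none could be left out. A stricter peak threshold could not be tried without peak scores.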
